A study of Mus musculus with 12 samples.

Results

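Fatty acid oxidation in mouse liver was followed through 32 genes: the nuclear receptor PPAR-alpha (Ppara), the enzymes and carriers that burn fatty acids in mitochondria and peroxisomes, and genes known to be switched on by PPAR-alpha. The genes were taken by name from a table of raw read counts, and each of the 32 names matched 1 of the 24983 genes in it. All 32 had enough reads to be tested, so no member was lost to the filter on low counts. The lowest count of any member in any library was 83 reads, for Pdk4.

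Inside the cell fatty acids are joined to CoA, and carnitine carries long chains through the mitochondrial membranes. There, beta-oxidation shortens the chain in repeated rounds of dehydrogenation, hydration, a further dehydrogenation and thiolysis, and peroxisomes run a parallel pathway for very long and branched chains. PPAR-alpha is the liver's main fatty acid sensor: bound by fatty acids and paired with the retinoid X receptor, it raises transcription of many of these genes in fasting, and the pathway is widely studied in fatty liver disease.

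The title of the series sets its question: whether nitro-fatty acids protect a fatty liver. Livers of 12 C57BL/6J mice, with no altered allele named, were sequenced as bulk tissue, 3 mice in each of 4 groups, told apart by ear tags. In the chow group the food was standard chow, also for 24 weeks. For the 3 other groups it was a diet that brings on steatohepatitis (NASH), holding saturated fat, trans-fat, fructose and cholesterol with 40% of calories from fat, for 24 weeks. Each NASH-diet mouse carried an osmotic minipump under the skin, which released polyethylene glycol alone in the vehicle group. In the OA group it also held oleic acid, a common dietary fatty acid. In the OA-NO2 group it held nitrated oleic acid, the same chain bearing a nitro group. Both were given in polyethylene glycol at 5 mg/kg/day. No pump is named in the labels of the chow mice, so diet and pump cannot be told apart in any comparison with chow. The sources used here do not give the sex or age of the mice or when they last ate.

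Total counts were between 15972613 and 20613777 per library, except for chow replicate 1 with 8462590. Levels are given as CPM, each gene's count as a rate over its library's total after TMM scaling (trimmed mean of M values), which sets the typical gene equal between libraries. That scaling bears on these genes: the TMM factors were 0.758 to 0.832 in chow and 1.13 to 1.18 with vehicle. As a share of all counts, the 32 genes together took 1.13% to 1.33% in chow and 1.13% to 1.40% with vehicle. The falls described here are therefore falls relative to the typical gene. With libraries scaled by total count alone, the median log2 fold change of vehicle over chow was 0.51 over all genes and -0.08 over the members. Slc22a5 was then the 1 member called lower, and Acads, Pex11a, Acot2 and Pdk4 were called higher. Hepatocyte markers were abundant in every library. Their 8 markers summed to 144027 to 177555 CPM in chow, 59873 to 75487 CPM with vehicle, 70004 to 118259 CPM with OA and 86293 to 126025 CPM with OA-NO2. The 8 macrophage markers summed to 213 to 465 CPM in chow, 700.2 to 950.3 CPM with vehicle, 629.8 to 1167 CPM with OA and 526 to 563 CPM with OA-NO2. The 7 markers of stellate cells and fibroblasts summed to 257 to 309 CPM in chow, 511 to 895 CPM with vehicle, 349.9 to 863 CPM with OA and 300.0 to 474 CPM with OA-NO2. Between vehicle and chow, 4 of the 8 hepatocyte markers fell, with a median log2 fold change of -0.80 and 8 of 8 below 0. In the same comparison 6 of 8 macrophage and 6 of 7 stellate markers rose (medians 1.37 and 2.06). Markers of cholangiocytes, the bile duct cells, rose in 3 of 4 cases (median log2 fold change 2.22) and those of lymphocytes in 2 of 5 (median 1.36), while 0 of 4 endothelial markers were called. The part of this shift in the results on oxidation genes was not tested, and in bulk tissue fewer hepatocytes and less of an RNA per hepatocyte cannot be told apart.

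Between vehicle and chow, 12 of the 32 genes fell and 0 rose (edgeR quasi-likelihood test, adjusted p under 0.05). Of all 14469 genes tested, 8.16% fell and 11.1% rose by the same rule. The genes that fell were mostly genes of mitochondrial oxidation: Slc22a5, Cpt1a, Acadm, Acadvl, Hadha, Hadhb, Acaa2, Etfdh, Eci2, Decr1, Decr2 and Ech1. Their log2 fold changes ran from -1.13 to -0.61. Over all 32, the median log2 fold change was -0.59, with a range of -1.36 to 1.04. The median was -0.01 over all genes tested and -0.80 over the 8 hepatocyte markers. The log2 fold change was below 0 for 28 members. In 20 members every vehicle library was below every chow library, and in 1 (Pdk4) every vehicle library was above. Among all genes, 19.0% were separated downward and 20.4% upward in this way. Of the 8 hepatocyte markers, 7 were separated downward and 0 upward. The count of falls was 3 without chow replicate 1, 4 without chow replicate 2, 3 without vehicle replicate 2 and 3 without vehicle replicate 3, with Slc22a5 and Etfdh called each time.

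The members did not move as a block. In 4 of the 7 roles the median gene was below the chow mean in all 3 vehicle libraries. The median of the peroxisome role was above it in vehicle replicate 1 and below it in vehicle replicates 2 and 3. Pdk4, Acot2, Acads and Pex11a were the 4 members with a positive log2 fold change of vehicle over chow. Chow had the highest group mean for 19 of the 32 genes and OA-NO2 for 12, while vehicle had the lowest mean for 20. The median over the 32 genes of the log2 level relative to the chow mean was -0.30, -0.68 and -0.68 in vehicle replicates 1 to 3. The 3 OA libraries had -0.57, -0.57 and -0.15. The 3 libraries with the nitrated acid had -0.27, -0.04 and 0.09. OA replicate 3 stood apart from the other OA libraries, near the OA-NO2 libraries.

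**Figure D1:**
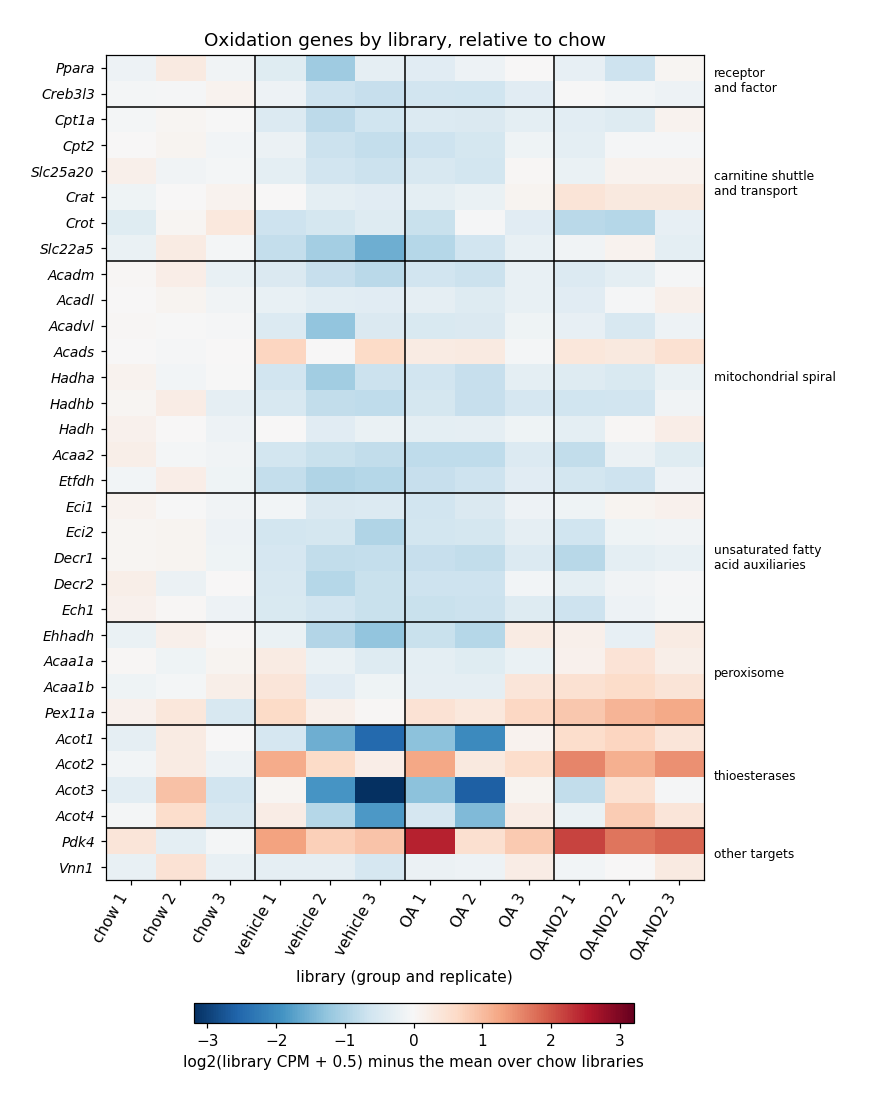
Level of each of the 32 genes (rows, grouped by role) in each of the 12 libraries (columns), as log2(CPM + 0.5) minus the mean over the 3 chow libraries; blue is below chow, red above. Most rows of mitochondrial enzymes are blue in the vehicle libraries and in OA replicates 1 and 2, and paler in OA replicate 3 and with OA-NO2, while Pdk4, Acot2 and Pex11a are red with OA-NO2.

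Ppara itself (chr15:85734983-85802819, plus strand; coordinates here are GRCm38, from GENCODE M21) encodes the receptor. It measured 121, 167 and 126 CPM in chow replicates 1 to 3, 104, 62.1 and 111 CPM with vehicle, 106, 123 and 138 CPM with OA and 114, 86.5 and 143 CPM with OA-NO2. All 3 vehicle libraries were below all chow libraries, with vehicle replicate 2 lowest. The log2 fold change of vehicle over chow was -0.58 ± 0.24 (SE, n = 3 per group) and did not pass the test (edgeR adjusted p = 0.10). Neither OA over vehicle (0.40 ± 0.23) nor OA-NO2 over vehicle (0.31 ± 0.23) passed, and both groups overlapped vehicle. Creb3l3 encodes a liver transcription factor that works alongside PPAR-alpha in fasting. Its levels were 325, 333 and 372 CPM in chow replicates 1 to 3, 308, 215 and 206 CPM with vehicle, 224, 221 and 269 CPM with OA and 338, 323 and 306 CPM with OA-NO2. Its log2 fold change of vehicle over chow was -0.50 ± 0.17 (edgeR adjusted p = 0.0578), short of the threshold, although the groups did not overlap.

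The carnitine shuttle holds the step at which the liver sets the rate of oxidation. Cpt1a (chr19:3322334-3385733, plus strand), carnitine palmitoyltransferase 1A, joins long-chain acyl groups to carnitine at the outer mitochondrial membrane and is that rate-setting enzyme. It measured 867, 954 and 907 CPM in chow replicates 1 to 3, 665, 508 and 584 CPM with vehicle, 673, 663 and 729.8 CPM with OA and 724, 677 and 977 CPM with OA-NO2. Every vehicle and every OA library lay below every chow library, and OA-NO2 replicate 3 alone exceeded the chow range. With vehicle, Cpt1a fell to 0.644 of its chow level (log2 fold change -0.63 ± 0.18, edgeR adjusted p = 0.0268). That call was lost without any 1 of chow replicates 1, 2 and 3 or vehicle replicates 2 and 3, with adjusted p up to 0.101.

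Slc22a5 (chr11:53864542-53891660, minus strand) encodes OCTN2, the transporter that brings carnitine into the cell. Its levels were 60.3, 84.1 and 66.1 CPM in chow replicates 1 to 3, 40.7, 32.3 and 23.3 CPM with vehicle, 36.9, 45.6 and 58.9 CPM with OA and 64.7, 75.4 and 55.6 CPM with OA-NO2. The vehicle libraries were all below the chow libraries, and the OA-NO2 libraries were all above the vehicle libraries and overlapped chow. Slc22a5 had the largest fall among the called members between vehicle and chow, with a log2 fold change of -1.13 ± 0.22 (edgeR adjusted p = 0.00602). It was the only member still called in all 19 alternative analyses of that comparison. OA over vehicle gave 0.55 ± 0.22 and OA-NO2 over vehicle 1.02 ± 0.22 on the log2 scale, neither called (edgeR adjusted p = 0.975 and 0.138). OA-NO2 over vehicle was called without OA replicate 3, with DESeq2 and with no filter on low counts. Of the stretches of 76 bases (1 read) in Slc22a5 exons, 16.9% also occur elsewhere, in Slc22a21, whose level was at most 0.532 CPM.

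The other members of the shuttle were not called in any comparison. Cpt2, which hands the acyl group back to CoA inside the mitochondrion, had a log2 fold change of -0.53 ± 0.19 between vehicle and chow (edgeR adjusted p = 0.0658). Slc25a20, the carnitine-acylcarnitine carrier of the inner membrane, had -0.53 ± 0.19 (edgeR adjusted p = 0.0626). Crot, which makes carnitine esters of medium chains in peroxisomes, had -0.57 ± 0.25 there. It was 1 of 2 members, with Acads, whose mean was lower with OA-NO2 than with vehicle (-0.11 ± 0.25). Crat, the acetyltransferase that exports acetyl groups as carnitine esters, behaved otherwise: its levels were 92.6, 103 and 109 CPM in chow replicates 1 to 3, 102, 81.4 and 78.7 CPM with vehicle, 80.9, 87.4 and 108 CPM with OA and 136, 127 and 125 CPM with OA-NO2. All 3 OA-NO2 libraries were above every library of the 3 other groups, while vehicle overlapped chow. OA-NO2 over vehicle was 0.57 ± 0.15 on the log2 scale and was not called (edgeR adjusted p = 0.159). The values in every library of Crat, Creb3l3, Acads, Ehhadh, Acot1 and Pex11a are given because of their pattern, chosen after their values were seen.

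**Figure D2:**
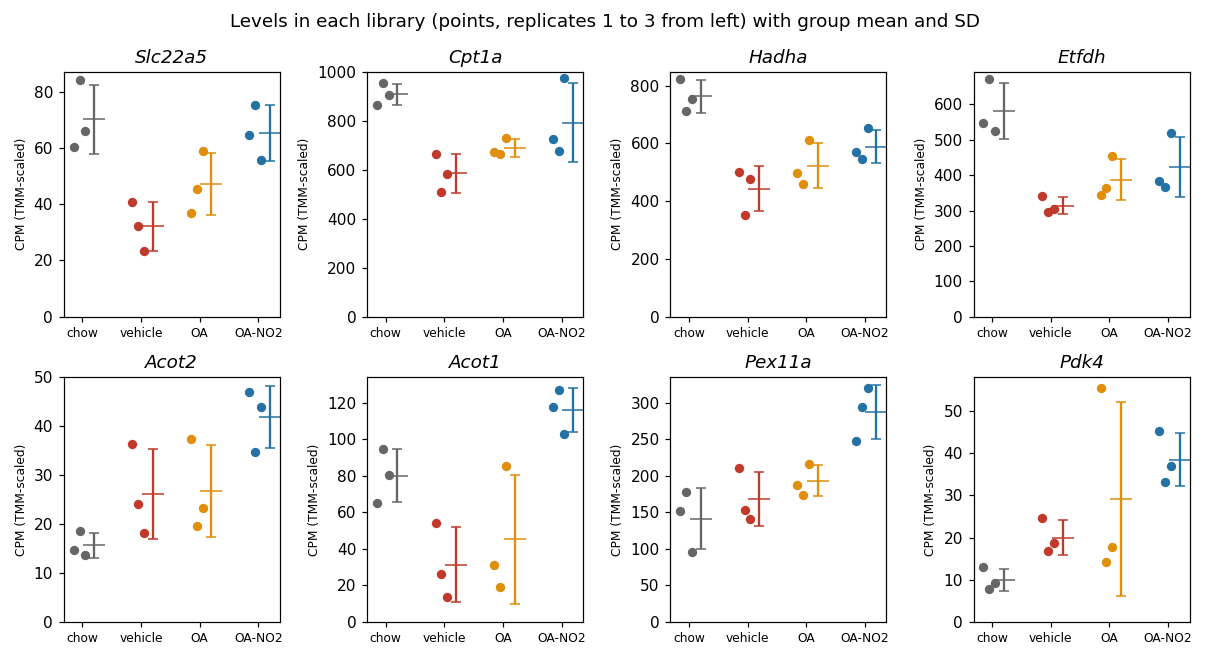
CPM in each library (points, replicates 1 to 3 from left to right) for 8 of the genes in the 4 groups, with the group mean and SD (n = 3) beside the points. Slc22a5, Cpt1a, Hadha and Etfdh are lower with vehicle than with chow; for Acot1 and Pex11a the 3 OA-NO2 libraries lie above all others.

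In the mitochondrial spiral 6 of 9 enzymes fell between vehicle and chow and 0 rose, and the median log2 fold change was -0.69. Beside this, 8.16% of all genes fell, and so did 4 of the 8 hepatocyte markers, whose median was -0.80. Hadha (chr5:30118304-30155162, minus strand) and Hadhb (chr5:30155248-30184593, plus strand) encode the alpha and beta chains of the trifunctional protein, which carries out the last 3 steps of a round on long chains. Hadha measured 824, 711 and 755 CPM in chow replicates 1 to 3, 501, 353 and 475 CPM with vehicle, 498, 458 and 611 CPM with OA and 569, 547 and 652 CPM with OA-NO2. Hadhb measured 528, 602 and 416 CPM in chow replicates 1 to 3, 358, 295 and 287 CPM with vehicle, 346, 306 and 348 CPM with OA and 328, 332 and 470.3 CPM with OA-NO2. For both genes the vehicle libraries, and also the OA libraries, were all below the chow libraries. Hadha fell with a log2 fold change of -0.79 ± 0.18 (edgeR adjusted p = 0.0116) and Hadhb with -0.72 ± 0.19 (edgeR adjusted p = 0.0217). OA-NO2 over vehicle was 0.41 ± 0.18 for Hadha and 0.26 ± 0.19 for Hadhb, not called. Of the Hadhb stretches of 76 bases, 16.4% also occur in the annotated gene Gm13910, which was itself counted at 105 to 131 CPM in chow and 47.4 to 76.4 CPM with vehicle, so the Hadhb count is uncertain by reads shared between them.

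Hadha and Hadhb lie head to head on chromosome 5, and 85 bases separate the annotated genes. The stretch is shown because it lies between the starts of a pair of genes with close fold changes. It is chr5:30155163-30155247 on the plus strand, from the RefSeq promoter table of GRCm38.p6, with the GC box GGGCGG in capitals. The box was searched on both strands, 2 copies were found, and G and C made up 69.4% of the stretch. In 22.8% of the 32851 promoter windows of the table, the 85 bases just before the start site hold at least 1 copy.
Hadha-Hadhb interval: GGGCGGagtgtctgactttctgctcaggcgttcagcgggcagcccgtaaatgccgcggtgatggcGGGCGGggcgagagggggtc

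The acyl-CoA dehydrogenases, which open each round and differ in the chain length they prefer, did not behave alike. Acadm (chr3:153922357-153944632, minus strand), for medium chains, measured 999.9, 1124 and 831 CPM in chow replicates 1 to 3, 710.5, 581 and 539 CPM with vehicle, 634, 602 and 824 CPM with OA and 717, 792 and 958 CPM with OA-NO2. Acadvl (chr11:70010183-70015411, minus strand), for very long chains, measured 214, 207 and 203 CPM in chow replicates 1 to 3, 154, 86.8 and 152 CPM with vehicle, 149.5, 149.7 and 188 CPM with OA and 173, 145 and 185 CPM with OA-NO2. In both, every vehicle library and every OA library was below every chow library. Acadm fell with a log2 fold change of -0.69 ± 0.20 (edgeR adjusted p = 0.0283) and Acadvl with -0.67 ± 0.20 (edgeR adjusted p = 0.0368). Neither was called without any 1 of chow replicates 1 and 2 and vehicle replicates 2 and 3. Dvl2 on the opposite strand covers 42.9% of the exon bases of Acadvl, but it was counted at no more than 3.55 CPM in any library. Acadl, the long-chain enzyme, had a log2 fold change of -0.31 ± 0.16 and was not called. Its vehicle and OA libraries too were all below its chow libraries. Acads (chr5:115110299-115119346, minus strand), the short-chain enzyme, was the 1 spiral member with a higher mean in every NASH-diet group than in chow. Acads measured 141, 135 and 140.0 CPM in chow replicates 1 to 3, 225, 139.9 and 213 CPM with vehicle, 167, 170.3 and 133 CPM with OA and 178, 172 and 194 CPM with OA-NO2. Vehicle replicates 1 and 3 were above the chow range and replicate 2 was inside it, and the log2 fold change of 0.47 ± 0.18 was not called (edgeR adjusted p = 0.0782).

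Acaa2 (chr18:74779197-74806208, plus strand) encodes the thiolase that splits off acetyl-CoA. It measured 1724, 1440.3 and 1402 CPM in chow replicates 1 to 3, 1014, 924 and 874 CPM with vehicle, 868, 863 and 1120.0 CPM with OA and 872, 1324 and 1154 CPM with OA-NO2. All 9 NASH-diet libraries were below all chow libraries. It fell between vehicle and chow with a log2 fold change of -0.70 ± 0.20 (edgeR adjusted p = 0.0262), and between OA and chow with -0.68 ± 0.20 (edgeR adjusted p = 0.0481). Per kilobase of annotated exon it was the most abundant of the 32 genes in chow, at 1004 CPM per kilobase, ahead of Acaa1b at 599.7 and Ehhadh at 478. Pdk4 at 2.84 and Acot2 at 7.12 CPM per kilobase were the lowest. Etfdh (chr3:79603788-79629500, minus strand) encodes the oxidoreductase that passes electrons from the dehydrogenases to the respiratory chain. Etfdh measured 547, 673 and 524 CPM in chow replicates 1 to 3, 342, 295 and 304 CPM with vehicle, 344, 363 and 453 CPM with OA and 384, 366 and 519 CPM with OA-NO2. Vehicle was lowest, all OA and OA-NO2 libraries were above all vehicle libraries, and all 9 NASH-diet libraries were below all chow libraries. The log2 fold change of vehicle over chow was -0.89 ± 0.18 (edgeR adjusted p = 0.00743), a call lost only when libraries were scaled by total count alone. OA over vehicle was 0.30 ± 0.18 and OA-NO2 over vehicle 0.43 ± 0.18, neither called. Hadh, the short-chain hydroxyacyl dehydrogenase, had -0.18 ± 0.18 between vehicle and chow and overlapping groups.

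The enzymes that deal with the double bonds of unsaturated fatty acids gave 4 falls among 5 genes between vehicle and chow. Their median log2 fold change was -0.70. The references are again 8.16% of all genes and 4 of the 8 hepatocyte markers, whose median was -0.80. Decr1 (chr4:15917240-15945507, minus strand), the mitochondrial dienoyl-CoA reductase, measured 645, 657 and 561 CPM in chow replicates 1 to 3, 423, 361 and 363 CPM with vehicle, 371, 358 and 458 CPM with OA and 336, 497 and 528 CPM with OA-NO2. Decr2 (chr17:26081208-26090337, minus strand), its peroxisomal counterpart, measured 432, 330.2 and 383 CPM in chow replicates 1 to 3, 264, 203 and 233 CPM with vehicle, 239.9, 241 and 356 CPM with OA and 307, 349.9 and 372 CPM with OA-NO2. Every vehicle library was below every chow library in both, and for Decr1 so was every OA and OA-NO2 library. The log2 fold changes of vehicle over chow were -0.70 ± 0.19 for Decr1 and -0.71 ± 0.19 for Decr2 (edgeR adjusted p = 0.0231 and 0.0217). Decr1 also fell with OA over chow (log2 fold change -0.65 ± 0.19, edgeR adjusted p = 0.0495). The 3 OA-NO2 libraries of Decr2 were all above its vehicle libraries, with 0.56 ± 0.19 on the log2 scale and no call.

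Eci2 (chr13:34977748-35027096, minus strand), an enoyl-CoA isomerase, measured 356, 364 and 305 CPM in chow replicates 1 to 3, 226, 231 and 175 CPM with vehicle, 228, 231 and 278 CPM with OA and 220.1, 311 and 314 CPM with OA-NO2. Ech1 (chr7:28825217-28832247, plus strand), a dienoyl-CoA isomerase, measured 779.6, 727 and 629 CPM in chow replicates 1 to 3, 509, 459 and 432 CPM with vehicle, 431, 439 and 528 CPM with OA and 447, 628 and 674 CPM with OA-NO2. Both were lower in all vehicle than in all chow libraries. Eci2 fell with a log2 fold change of -0.70 ± 0.18 (edgeR adjusted p = 0.0192) and Ech1 with -0.61 ± 0.18 (edgeR adjusted p = 0.0358). Eci1, the mitochondrial isomerase, overlapped chow and had -0.33 ± 0.17. In Decr1, Eci2 and Ech1, OA-NO2 replicate 1 lay within or below the vehicle range while replicates 2 and 3 lay above them.

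None of the 4 members grouped here under the peroxisome role was called between vehicle and chow, and their median log2 fold change was -0.05. Members grouped under other roles also act in peroxisomes. Among them are Decr2 (-0.71 ± 0.19), Eci2 (-0.70 ± 0.18), Ech1 (-0.61 ± 0.18), Crot (-0.57 ± 0.25), Acot3 (-1.26 ± 0.76) and Acot4 (-0.66 ± 0.49). Of those, Decr2, Eci2 and Ech1 were called. The 20 genes of peroxisomal oxidation beyond the members had a median of -0.59, with 20 below 0, so the role's median does not describe peroxisomal genes in general. Ehhadh, the peroxisomal bifunctional enzyme, measured 1219, 1592 and 1468 CPM in chow replicates 1 to 3, 1222, 744 and 592 CPM with vehicle, 861, 758 and 1714 CPM with OA and 1600.4, 1184 and 1697 CPM with OA-NO2. Vehicle replicate 1 and OA replicate 3 were within or above the chow range while the 4 other libraries of those groups were below it, so the groups overlapped and -0.74 ± 0.32 was not called (edgeR adjusted p = 0.123). Acaa1a and Acaa1b encode the peroxisomal thiolases, and their log2 fold changes of vehicle over chow were -0.09 ± 0.18 and -0.01 ± 0.24. Reads can move between them: 24.2% of the Acaa1b stretches of 76 bases also occur in Acaa1a. With OA-NO2 both thiolases were above every OA library, with 0.55 ± 0.18 and 0.52 ± 0.24 on the log2 scale, not called.

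Pex11a (chr7:79735957-79743131, minus strand) drives the elongation and division of peroxisomes. It measured 151, 177 and 96.0 CPM in chow replicates 1 to 3, 210.3, 153 and 141 CPM with vehicle, 187, 174 and 216 CPM with OA and 248, 294 and 319.8 CPM with OA-NO2. The 3 OA-NO2 libraries were above all 9 others. OA-NO2 over chow was 1.02 ± 0.22 on the log2 scale and just missed the threshold (edgeR adjusted p = 0.0520). OA-NO2 over vehicle was 0.77 ± 0.22 (edgeR adjusted p = 0.165). Vehicle over chow was 0.25 ± 0.22, with overlapping groups.

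The 4 acyl-CoA thioesterases, which release free fatty acid from CoA in the cytosol (Acot1), mitochondria (Acot2) and peroxisomes (Acot3 and Acot4), sit in 1 cluster on chromosome 12. Acot1, Acot3 and Acot4 had the widest 95% intervals of the 32 genes between vehicle and chow. Acot1 (chr12:84009490-84018371, plus strand) measured 65.3, 94.7 and 80.2 CPM in chow replicates 1 to 3, 53.9, 26.4 and 13.8 CPM with vehicle, 31.4, 18.9 and 85.4 CPM with OA and 118, 127 and 103 CPM with OA-NO2. All OA-NO2 libraries were above all others, and OA replicate 3 was 85.4 CPM against 31.4 and 18.9 CPM in the other OA mice. Of the Acot1 stretches of 76 bases, 14.9% also occur in other genes, and 11.1% in Acot2. OA-NO2 over vehicle was 1.89 ± 0.50 on the log2 scale, the largest such value among the 32 genes. It was not called (edgeR adjusted p = 0.158). Without OA replicate 3 it was called (edgeR adjusted p = 0.0380); over all alternatives its adjusted p ran from 0.0339 to 0.465.

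Acot2 (chr12:83987861-83993873, plus strand) measured 14.6, 18.6 and 13.7 CPM in chow replicates 1 to 3, 36.3, 24.1 and 18.2 CPM with vehicle, 37.3, 19.5 and 23.3 CPM with OA and 47.0, 34.7 and 43.9 CPM with OA-NO2. All diet groups had means above chow, and OA and OA-NO2 did not overlap it. Acot2 was the 1 member that passed between OA-NO2 and chow, with a log2 fold change of 1.42 ± 0.28 (edgeR adjusted p = 0.0450); the call was lost without any 1 of 7 libraries, the 3 chow libraries among them, with adjusted p up to 0.136. Of its stretches of 76 bases, 20.3% also occur in Acot1. For Acot3 and Acot4, 18% and 9.78% of the stretches also occur in other genes. Acot3 ranged from 6.97 to 132 CPM and Acot4 from 44.4 to 281 CPM over the 12 libraries. Within the vehicle group both were highest in replicate 1 (71.6, 18 and 6.97 CPM for Acot3 and 190.0, 84.2 and 44.4 CPM for Acot4). Within the OA group both were highest in replicate 3 (26.9, 10.7 and 72.5 CPM and 110.2, 59.5 and 187 CPM). Neither was called in any comparison, and their intervals for vehicle over chow were wide, -2.90 to 0.38 and -1.71 to 0.40 on the log2 scale.

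A response element for PPAR-alpha is a direct repeat of AGGTCA with 1 base between the copies. It was searched on both strands of the RefSeq promoter windows (GRCm38.p6, 250 bases before to 50 after a start site), which were found for 28 of the 32 genes. With up to 2 mismatches, 3 members had a match (10.7% of the 28: Creb3l3, Slc25a20 and Acot4), against 4.40% of 27025 genes, and in 3.86% of the windows. With 1 mismatch or none, 0 members had a match, against 0.644% and 0.0481% of genes. A match describes letters only, and elements outside these windows were not searched. The stretches before the start site of Creb3l3 (chr10:81092592-81092841, minus strand) and Acot4 (chr12:84038129-84038378, plus strand) are shown because they hold the matches, which are in capitals. The Creb3l3 window belongs to 1 of 2 start sites in the table, the one inside the gene as GENCODE draws it, and the match begins 209 bases before it. The Acot4 match ends at the last base before the start site and reads on the opposite strand.
Creb3l3 promoter: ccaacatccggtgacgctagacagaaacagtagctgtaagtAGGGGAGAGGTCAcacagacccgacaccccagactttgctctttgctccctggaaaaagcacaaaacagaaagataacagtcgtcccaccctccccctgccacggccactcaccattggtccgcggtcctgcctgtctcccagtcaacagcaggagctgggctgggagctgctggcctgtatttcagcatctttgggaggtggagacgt
Acot4 promoter: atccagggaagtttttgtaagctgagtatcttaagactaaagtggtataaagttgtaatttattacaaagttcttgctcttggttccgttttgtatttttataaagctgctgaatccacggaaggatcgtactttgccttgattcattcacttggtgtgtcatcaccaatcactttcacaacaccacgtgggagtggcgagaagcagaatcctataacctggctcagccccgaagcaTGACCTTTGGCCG

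Pdk4 (chr6:5483351-5496309, minus strand) encodes a kinase that shuts pyruvate dehydrogenase and so spares glucose when fat is burned. It measured 12.9, 7.70 and 9.28 CPM in chow replicates 1 to 3, 24.6, 16.8 and 18.8 CPM with vehicle, 55.6, 14.2 and 17.7 CPM with OA and 45.3, 33.1 and 36.9 CPM with OA-NO2. Every NASH-diet library was above every chow library, and OA replicate 1 was the highest of all. Pdk4 was higher with OA than with chow, a called rise with a log2 fold change of 1.58 ± 0.42 (edgeR adjusted p = 0.0345), the 1 rise among the 32 genes in that comparison. Without OA replicate 1 that value was 0.71 and was not called. With OA-NO2 over chow it was 1.97 ± 0.42 (edgeR adjusted p = 0.0516), and with vehicle over chow 1.04 ± 0.42 (edgeR adjusted p = 0.0981). Vnn1 encodes the pantetheinase vanin-1 and is a sensitive PPAR-alpha target in liver. It had -0.40 ± 0.21 with vehicle over chow, 0.35 ± 0.21 with OA over vehicle and 0.44 ± 0.21 with OA-NO2 over vehicle. None of these was called, although in each case the groups did not overlap. For Vnn1, OA-NO2 over OA was 0.09 ± 0.21, with overlapping groups.

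**Figure D3:**
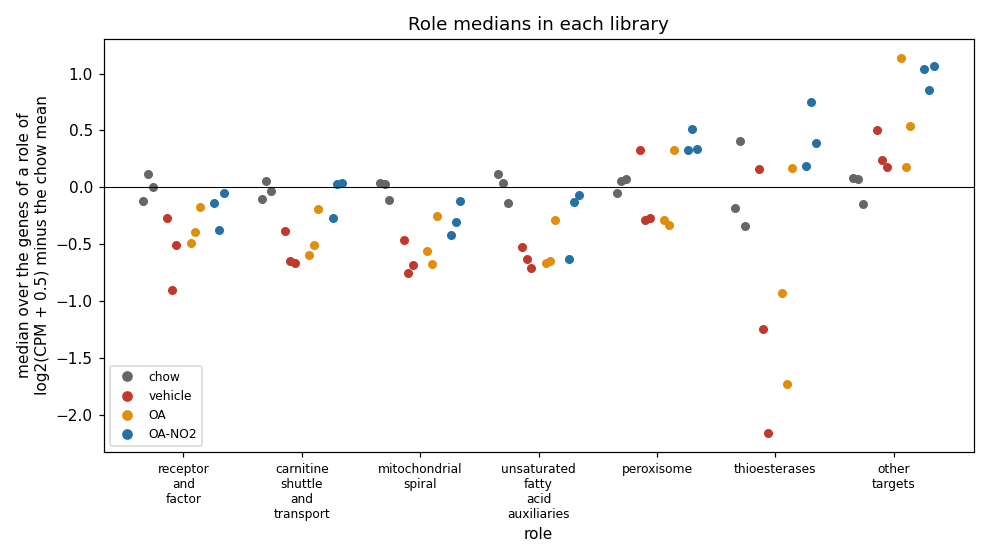
Median over the genes of each role of log2(CPM + 0.5) minus the chow mean, in each of the 12 libraries (points, coloured by group). The carnitine, mitochondrial and unsaturated fatty acid roles are below 0 in all vehicle and OA libraries; the peroxisome and thioesterase roles are above 0 in all OA-NO2 libraries, in vehicle replicate 1 and in OA replicate 3, and below 0 in the other vehicle and OA libraries.

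OA over vehicle asked whether the plain fatty acid changed these genes on the NASH diet. None of the 32 was called in either direction (edgeR), as was none of all genes tested (0% higher and 0% lower). DESeq2 and limma-voom called 0 members too. At an unadjusted p under 0.05, 1 member was higher (Slc22a5) and 0 lower, beside 2.36% of all genes higher. The median log2 fold change of the 32 was 0.18, with 24 above 0, and the values ran from -0.30 to 0.55. Without OA replicate 3 the median was -0.05.

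OA-NO2 over vehicle asked the same of the nitrated acid. Again 0 of the 32 were called by edgeR in either direction, where 0.0207% of all genes rose and 0% fell. By DESeq2 2 members were called higher (Slc22a5 and Crat) and by limma-voom 0. Of the 32, 30 had a higher mean log2 level with OA-NO2, the median log2 fold change was 0.42 against 0.02 over all genes, and the range was -0.11 to 1.89. At an unadjusted p under 0.05, 16 members were higher and 0 lower, beside 7.25% of all genes higher. In 13 members every OA-NO2 library was above every vehicle library, beside 9.18% of all genes and 4 of the 8 hepatocyte markers. By role, the median log2 fold change was 1.02 for thioesterases, 0.69 for the 2 other targets (Pdk4 and Vnn1), 0.64 for peroxisomal genes, 0.49 for the carnitine shuttle, 0.37 for the unsaturated fatty acid enzymes, 0.36 for the receptor and Creb3l3, and 0.26 for the mitochondrial spiral. The hepatocyte markers had a median of 0.58 in the same comparison, with 8 of 8 above 0, the macrophage markers -0.48, the stellate markers -0.97, the lymphocyte markers -0.78 and the cholangiocyte markers -1.80, with none called. Their part in the values of the oxidation genes was not tested.

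**Figure D4:**
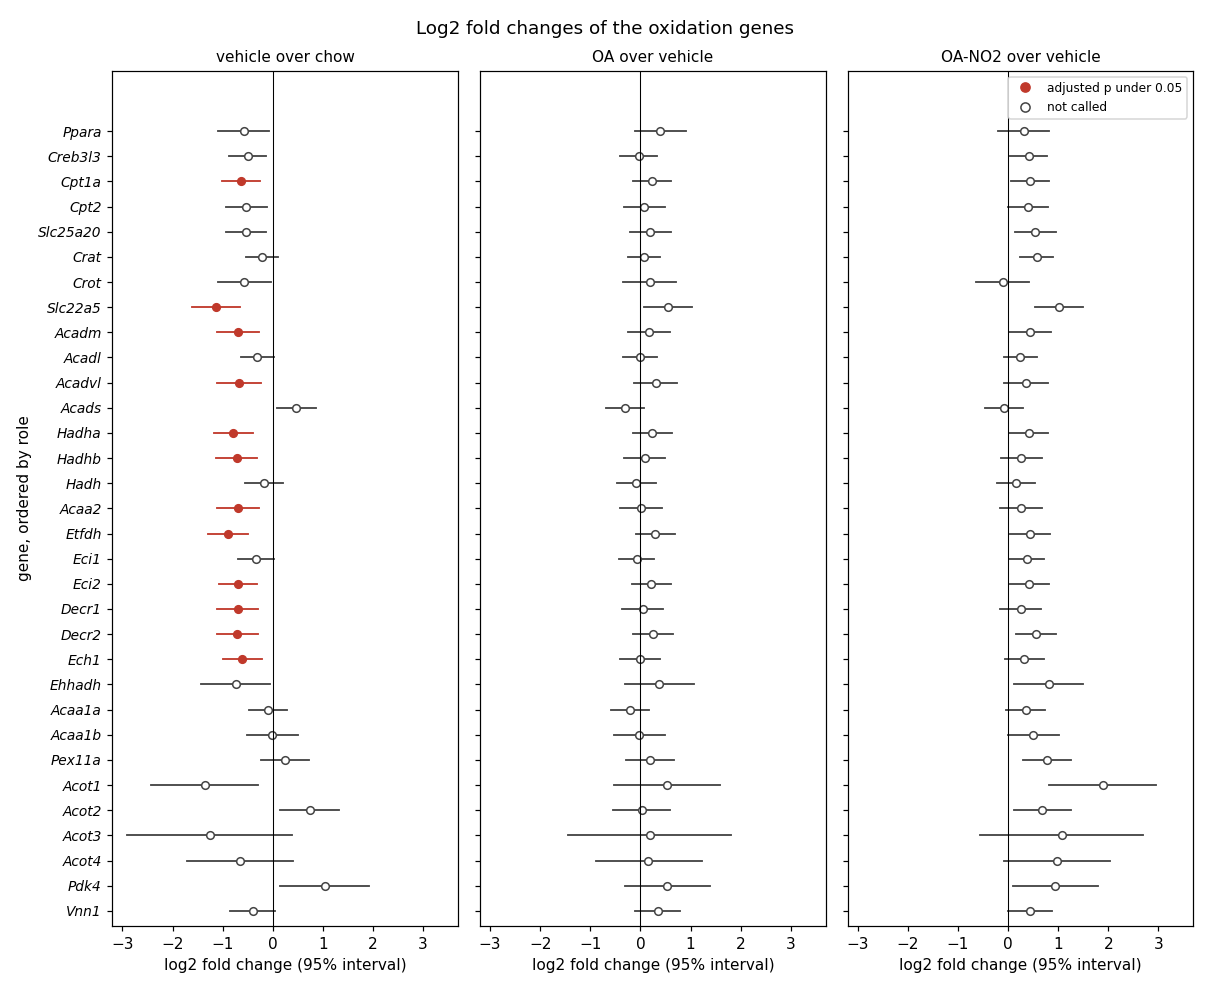
Log2 fold changes with 95% intervals of the 32 genes for vehicle over chow, OA over vehicle and OA-NO2 over vehicle (edgeR, n = 3 mice per group); filled red points passed an adjusted p of 0.05. The 12 called genes are all left of 0 in the first comparison, and 30 of 32 points are right of 0 in the last without a call.

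The 12 genes that fell on the diet and the other 20 can be set side by side, as a description only: the 12 were chosen by their chow and vehicle values, and each contrast given here reuses the chow or the vehicle libraries, so the sign of its values is in part fixed by that choice. With OA-NO2 over vehicle, the 12 had log2 fold changes of 0.25 to 1.02 (median 0.42). The other 20 ran from -0.11 to 1.89 (median 0.47). With OA-NO2 over chow, the 12 ran from -0.46 to -0.11, with a median of -0.30. The other 20 had a median of 0.05 there, and 13 of them were above 0. With OA over chow, the medians were -0.56 for the 12 and -0.31 for the 20.

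OA-NO2 over OA compares the 2 acids, which differ by the nitro group, at the same dose and time. It was 1 pair of compounds, tested gene by gene with adjustment over all genes. None of the 32 genes was called by edgeR, DESeq2 or limma-voom, where edgeR found 0.00691% of all genes higher and 0% lower. The median log2 fold change was 0.31 (all genes -0.00), and 30 of 32 values were above 0. The hepatocyte markers had a median of 0.28 in the same comparison, with 7 of 8 above 0, the macrophage markers -0.76 and the stellate markers -0.61, with none called. Their part in the values of the oxidation genes was not tested. At an unadjusted p under 0.05, 8 members were higher and 0 lower, beside 5.27% of all genes higher. In 8 members every OA-NO2 library was above every OA library, beside 6.98% of all genes. The difference was 1.36 ± 0.49 on the log2 scale for Acot1, with a 95% interval of 0.31 to 2.42, and 0.55 ± 0.18 for Acaa1a (0.17 to 0.94). It was 0.58 ± 0.22 for Pex11a (0.10 to 1.05), 0.49 ± 0.15 for Crat (0.17 to 0.82) and 0.20 ± 0.18 for Cpt1a (-0.18 to 0.59). Acot1, Acaa1a, Pex11a and Crat are among the 8 members with an unadjusted p under 0.05 (edgeR), so intervals without 0 are given by that choice. These intervals are per gene and unadjusted, and a p above the threshold does not show that the acids act alike. OA replicate 3 weighs on this comparison: without it the median was 0.43 and Acot1 was called (adjusted p = 0.0362).

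Against chow, which enters all 3 such comparisons, the diet groups gave different numbers of calls. With OA, 2 members fell (Acaa2 and Decr1) and 1 rose (Pdk4), where 2.23% of all genes fell and 6.33% rose, and the median of the members was -0.40. Both falls were lost without most single libraries (adjusted p up to 0.198), and without OA replicate 3, 14 members fell with OA. With OA-NO2, 0 members fell and 1 rose (Acot2), where 0.249% of all genes fell and 0.435% rose. The members' median was -0.10 there, with 13 above 0 and 19 below. Both directions depend on the scaling. With libraries scaled by total count alone, the members' median was 0.02 for OA over chow, with 0 lower and 4 higher, where the median of all genes was 0.42. It was 0.22 for OA-NO2 over chow, with 6 higher, where the median of all genes was 0.34. A difference between such values is tested by the comparisons between diet groups already given, in which no member was called.

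Mice within a group ranked alike over many of the genes. Vehicle replicate 1 was the highest of its group for 28 of the 32 genes, and OA replicate 3 was the highest of its group for 28. OA-NO2 replicate 3 was highest for 21. In chow the counts were 10, 17 and 5 for replicates 1 to 3. The members share libraries and scaling, so these counts are no separate evidence for each gene. OA replicate 3 also had the highest summed hepatocyte markers and the lowest TMM factor (0.957) of the OA group. In the vehicle group the factors were 1.13, 1.18 and 1.15.

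Other genes of the pathway, from lists of 117 genes in the table of which 112 were tested, were also mostly lower with vehicle than with chow. Of the 112, 35 fell and 9 rose, and the median log2 fold change was -0.36. Of all genes tested, 8.16% fell and 11.1% rose, and these shares are the reference for the counts of each list. The median was -0.01 over all genes and -0.80 over the 8 hepatocyte markers. Values given for the other pathway genes are log2 fold changes of vehicle over chow ± SE unless stated otherwise. In peroxisomal oxidation beyond the members, 7 of 20 genes fell and 0 rose. Hacl1, which cleaves branched and hydroxylated acyl-CoA, had a log2 fold change of -2.25 ± 0.34 (edgeR adjusted p = 0.00254). Its levels were 547, 322 and 351 CPM in chow replicates 1 to 3, 127, 74.4 and 55.1 CPM with vehicle, 85.6, 117 and 181 CPM with OA and 219.8, 293 and 340.0 CPM with OA-NO2. The OA-NO2 libraries were all above the vehicle and OA libraries, with 1.73 ± 0.34 over vehicle and no call (edgeR adjusted p = 0.138). Slc27a2, a fatty acid transporter and very long chain acyl-CoA synthetase, Pecr, an enoyl-CoA reductase, and Abcd3, a peroxisomal transporter, fell with log2 fold changes of -0.98, -0.96 and -0.89.

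Other PPAR-alpha targets went both ways on the diet, with 3 rises and 8 falls among 19 genes tested. The fatty acid omega-hydroxylases Cyp4a32 (-1.84 ± 0.26) and Cyp4a31 (-1.65 ± 0.34) fell (edgeR adjusted p = 0.00207 and 0.00677). They belong to a family of near-identical copies, so reads may be split among them. Cidec, a lipid droplet protein that is also a target of PPAR-gamma, rose with 1.77 ± 0.22 (edgeR adjusted p = 0.00133), and Ucp2, a mitochondrial carrier also found in macrophages, with 1.54 ± 0.27 (edgeR adjusted p = 0.00400). Cidec was the 1 gene of the 112 called between OA-NO2 and chow (1.64 ± 0.22, edgeR adjusted p = 0.00560). With OA-NO2 over vehicle, the list had a median of 0.68 and 0 were called. In 9 of the 19 genes every OA-NO2 library was above every vehicle library, beside 9.18% of all genes. The same held for 4 of the 8 hepatocyte markers, whose median was 0.58.

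Of 21 other genes of mitochondrial oxidation, 8 fell and 2 rose. Acadsb, for branched short chains, fell with a log2 fold change of -1.0 ± 0.22, Hsd17b10, a hydroxyacyl-CoA dehydrogenase, with -1.13 ± 0.27, and Acad11 with -0.81 ± 0.21, while Acad12 rose with 0.70 ± 0.16. In ketone body metabolism, Bdh2 fell with -1.39 ± 0.35. Oxct1, which uses ketone bodies and is normally low in hepatocytes, rose with 1.40 ± 0.30, from 4.99, 5.23 and 4.86 CPM in chow to 8.01, 18 and 13.7 CPM with vehicle. In carnitine synthesis, Bbox1 (-0.87 ± 0.24) and Aldh9a1 (-0.51 ± 0.16) fell among 3 genes tested.

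Among 6 other thioesterases, Acot12, which cleaves acetyl-CoA, fell with -0.85 ± 0.17, while Acot6 (1.53 ± 0.32) and Acot9 (1.31 ± 0.34) rose. Acot6 was counted at only 1.02 to 3.80 CPM. Of 21 partners and regulators of PPAR-alpha, 5 fell and 1 rose. Ppargc1a, a coactivator of the receptor, fell with -0.69 ± 0.17, Hnf4a, a hepatocyte transcription factor also among the hepatocyte markers, with -0.62 ± 0.18, and the deacetylase Sirt1 with -0.48 ± 0.14. Pparg, the receptor of fat storage, rose with 1.10 ± 0.24 (edgeR adjusted p = 0.00924). Pex26, a gene of peroxisome assembly, fell with -0.93 ± 0.21.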

How the data were processed

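Liver RNA of 12 mice was sequenced as paired reads of 76 bases from mRNA libraries (KAPA mRNA HyperPrep), per the labels' protocols. The submitters' processing notes name Trimmomatic 0.35, HISAT2 2.1.0, SAMtools 1.2, HTSeq and build GRCm38. The authors deposited whole-number read counts per gene, not normalised, for 24983 Ensembl genes, and the sources used here state neither annotation release nor use of strand. A symbol was found for 24914 identifiers through GENCODE M21, and 0 columns were left unmapped.

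The filterByExpr rule of edgeR, with a minimum count of 10 and a minimum total of 15, kept 14469 genes. All 12 libraries entered 1 quasi-likelihood model with TMM scaling (edgeR 4.0.16, R 4.3.3), with Benjamini-Hochberg adjustment over the 14469 genes and a threshold of 0.05. Standard errors and 95% intervals derive from the F statistic. CPM use TMM-scaled totals, and log2 levels per library add 0.5 CPM. The fit was tested on simulated data. The biological coefficient of variation was 0.226, and chi-square per degree of freedom between replicates was at least 16.9, so no library repeated another.

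Alternatives were relative log expression factors, total count alone, no filter, DESeq2 1.42.0, limma-voom (limma 3.58.1), a fit of only the groups compared, and each library left out. Leaving out chow replicate 1 and OA replicate 3 together was added after seeing the data. Per-library values are given for Ppara, Cpt1a, Pdk4 and every member called in at least 1 comparison. Of each other list up to 4 called genes with the lowest p between vehicle and chow are named, with their fold changes, though some results that this rule names are not reported here. The members and lists were chosen with earlier results of these data known. Replicate numbers follow deposit order and pair no animals.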

Additional observations from a re-analysis of the deposited data

How the results depend on the processing

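No paired analysis was possible because replicates are numbered by order of deposit and the groups hold different mice. For the members and comparisons called in at least 1 analysis, 950 values were computed under alternatives. Of these, 761 kept their side of the threshold, 106 lost a call, 83 gained one, and 0 called values changed sign. Scaling by total count alone raised the median of all genes between vehicle and chow to 0.51 and the members' median to -0.08, with 1 member lower and 4 higher. Under the same scaling the members' median was 0.22 for OA-NO2 over vehicle, 0.02 for OA over chow (0 lower, 4 higher) and 0.22 for OA-NO2 over chow (6 higher). It raised the genes called between vehicle and chow from 2786 to 5752, between OA and chow from 1238 to 3774, and between OA-NO2 and chow from 99 to 1122.

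For vehicle over chow, 2 members were higher with no filter, 2 with DESeq2 and 1 in the fit of only the groups compared. Leaving out 1 library gave 3 to 17 lower and 0 to 2 higher; the lowest counts were 3 without chow replicate 1, 4 without chow replicate 2, 3 without vehicle replicate 2 and 3 without vehicle replicate 3. Slc22a5 and Etfdh were called in each of these. Without chow replicate 1 and OA replicate 3 together, 6 were lower. For OA-NO2 over vehicle, 2 members were higher with no filter, 2 with DESeq2, 2 without chow replicate 1 and OA replicate 3, and 0 to 2 with 1 library left out. All genes called there went from 3 to 151 with no filter, 287 with DESeq2, 62 with only the groups compared, and 1 to 155 with 1 library left out. For OA-NO2 over OA, 1 member was higher without chow replicate 1 and OA replicate 3, and 0 to 1 with 1 library left out. All genes called went from 1 to 10 with no filter and 52 with DESeq2, and 1 to 130 with 1 library left out.

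For OA over chow, members lower were 0 with relative log expression factors, 0 with no filter, 7 with DESeq2, 1 with limma-voom, 0 with only the groups compared, and 0 to 14 with 1 library left out. Members higher were 0 with limma-voom, 0 with only the groups compared and 0 to 1 with 1 library left out, and the median ran from -0.60 to -0.33. All genes called were 769 with limma-voom, 778 with only the groups compared and 348 to 2232 with 1 library left out. For OA-NO2 over chow, members higher were 3 with no filter, 3 with DESeq2, 0 with limma-voom, 2 with only the groups compared, 0 without chow replicate 1 and OA replicate 3, and 0 to 3 with 1 library left out. All genes called were 262, 654, 21 and 53 under the first 4 of these, and 15 to 284 with 1 library left out. Allowing 1 mismatch or 0 mismatches left 0 of the 28 members with a match to the response element in their promoter windows. The cause of these changes was not tested. With 3 mice per group, intervals on the log2 scale reached 0.32 to 1.64 on either side of a member's value.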

Other observations

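The Cyp4a omega-hydroxylases, which start oxidation at the far end of a fatty acid and are classic PPAR-alpha targets in rodents, were singled out after their values were seen. Cyp4a14 measured 5298, 6105 and 5183 CPM in chow replicates 1 to 3, 2169, 1431 and 445 CPM with vehicle, 1222, 999.6 and 3069.6 CPM with OA and 4141, 4095 and 4152 CPM with OA-NO2. Cyp4a10 measured 4417, 3526 and 3416 CPM in chow replicates 1 to 3, 1479.8, 1145 and 508 CPM with vehicle, 899, 815 and 2620.3 CPM with OA and 3003, 3005 and 2999 CPM with OA-NO2. The OA-NO2 libraries were close to each other for both genes and above all vehicle and OA libraries, and OA replicate 3 was the highest of the OA group. Vehicle over chow was -2.04 ± 0.49 on the log2 scale for Cyp4a14 and -1.86 ± 0.44 for Cyp4a10 (edgeR adjusted p = 0.0139 and 0.0124). OA-NO2 over vehicle was 1.61 ± 0.48 and 1.52 ± 0.43, neither called (edgeR adjusted p = 0.172 and 0.164). Reads of this family may be shared among near-identical copies.

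Fgf21, a fasting hormone and PPAR-alpha target, measured 6.23, 3.09 and 4.73 CPM in chow replicates 1 to 3, 10.3, 19.2 and 18.5 CPM with vehicle, 13.7, 7.89 and 4.75 CPM with OA and 18.6, 5.64 and 6.10 CPM with OA-NO2. It rose between vehicle and chow with a log2 fold change of 1.81 ± 0.50 (edgeR adjusted p = 0.0239). OA-NO2 replicate 1 was at the vehicle level while replicates 2 and 3 were near chow.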
